A study of Solanum lycopersicum with 12 samples.

Results

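The pump genes described here are the tomato genes whose symbol or synonym in the platform annotation begins with LHA, LCA or VHA followed by a digit, a hyphen or the end of the name. LHA stands for the plasma membrane proton pumps, LCA for the calcium pumps and VHA for the subunits of the vacuolar proton pump. Of the 802 gene symbols on the array, 3 met this rule, each with 1 probe set: LHA1, LHA2 and LCA1 (synonym LCA1B). No named probe set began with VHA, so no subunit of the vacuolar proton pump was measured by name. The RefSeq tomato annotation holds 4 genes that fit the rule, and the one without a named probe set, LHA4, was not analysed here. A symbol could be given to 909 of the probe sets, while 9192 of the 10101 tested had none, so other pump genes may have been measured without a name.

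Plasma membrane proton pumps are P-type ATPases. They use ATP to move protons out of the cell, and the resulting gradient and membrane voltage drive the uptake of phosphate, sugars, amino acids and ions in the root epidermis and cortex and the loading of the vascular tissue. Their C-terminal tail inhibits the pump until it is phosphorylated and bound by a 14-3-3 protein. Calcium pumps are P-type ATPases as well, and clear calcium from the cytosol into internal stores or out of the cell. The vacuolar proton pump is a complex of many subunits that acidifies the vacuole.

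The data comprised 12 Affymetrix tomato arrays in 4 groups of 3. Wild-type tomato var. Beta (WT) and transgenic line 4 (L4) were each represented by 2 root sectors, namely epidermis with cortex (EC) and stele (S). L4 expresses the Arabidopsis Zn exporter AtHMA4 under the constitutive CaMV 35S promoter. All plants, wild type included, were exposed to 5 μM Zn. The labels give an exposure of 15 days and an age of 25 days, whereas the methods give a shorter exposure and younger plants. L4 is a single homozygous line. Each replicate was an independent experiment on roots pooled from several plants, from which both sectors were cut by laser and their RNA amplified, so EC and S arrays that share genotype and replicate number were treated as 1 root pool. No probe set was named for AtHMA4, so the genotype labels could not be checked by the transgene. In such tissue samples, fewer cells of a type and less RNA per cell cannot be told apart.

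The values were log2 signals per probe set, with array medians of 3.72 to 4.02 and lower quartiles of 2.37 to 2.81. L4 EC replicate 2 was an unusual array, with a narrower spread of values (SD 3.04, other arrays 3.32 to 3.48) and the brightest spike-in controls (mean of 27 probe sets 13.9, other arrays 9.65 to 12.4). The sector labels were only in part borne out by marker genes. Of 7 EC marker probe sets, the EC had the higher mean for 6 in the wild type and 5 in L4. Of 4 S marker probe sets the S had the higher mean for only 1 in the wild type and 2 in L4. Over all probe sets the EC had the lower mean for 58.3% in the wild type and 42.9% in L4. The wild-type EC minus S difference was 1.73 for PT1, 1.55 for PT2 and 0.37 for Dif54. It was only 0.077 for EXPA8, 0.056 for ext1 and 0.017 for FRO1. The markers were chosen with earlier results of these arrays known. Marker signals were summed on the linear scale and given as log2, so a sum follows its brightest genes. The summed EC markers lay between 9.60 and 10.0 in the EC and between 9.58 and 10.5 in the S. The EC marker with the highest maximum, exp18 (7.87 to 10.4), had its higher mean in the S in both genotypes. The summed S markers lay between 13.2 and 13.9 in the wild type and between 11.5 and 12.7 in L4, lower in both sectors of the line. That sum is in effect sus3 (11.5 to 13.8), as SUT2 (4.77 to 8.03) and SUT4 (2.40 to 4.15) were far dimmer. SUT2 was not lower in L4, with changes of 0.044 in the EC and 0.17 in the S. The 2 probe sets of SUT4 were at -0.29 and -0.019 in the EC and at 0.23 and -0.77 in the S. The EC marker FRO1 was at 1.95 to 2.42 on all arrays, which is at the low end of the signal. What part these markers have in the results below was not tested.

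LHA1 encodes a plasma membrane proton pump. In the EC of the wild type its log2 signal was 10.89, 11.25 and 11.69 in replicates 1 to 3, and in the EC of L4 it was 10.70, 10.19 and 9.76. All L4 arrays therefore lay below all wild-type arrays in this sector. In the S the values were 11.06, 11.43 and 10.25 for the wild type and 10.04, 11.82 and 10.78 for L4, where the groups overlapped fully. Group means, with SD and n = 3, ran from 11.28 ± 0.40 in the WT EC through 10.91 ± 0.61 in the WT S and 10.88 ± 0.89 in the L4 S to 10.22 ± 0.47 in the L4 EC. Between neighbours in this order the gap was smaller than the larger of the SDs.

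LHA2 encodes a second plasma membrane proton pump and varied least of the members, with an SD over the 12 arrays of 0.47 and a range of 1.39 on the log2 scale. Its values in the EC were 12.19, 12.87 and 12.19 in the wild type and 12.79, 11.87 and 12.59 in L4. In the S they were 12.24, 12.65 and 11.48 in the wild type and 11.62, 12.68 and 11.86 in L4. The genotypes overlapped in both sectors. Both EC means were 12.42, with SDs of 0.39 in the wild type and 0.48 in L4, and the S means were 12.12 ± 0.59 and 12.05 ± 0.56 (SD, n = 3). No step in this order exceeded the spread.

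LCA1 encodes a calcium pump of the endoplasmic reticulum type. It was the most variable member, with an SD of 1.29 and a range of 4.58 over the 12 arrays, against 0.66 and 2.05 for LHA1. In the EC its log2 signal was 6.60, 6.74 and 5.80 in the wild type and 5.69, 2.51 and 5.51 in L4. All L4 arrays were below all wild-type arrays, but replicates 1 and 3 of L4 lay close to the lowest wild-type value, and the 2.51 of replicate 2 was below the lower quartile of its own array (2.81). That is the array with the brightest spike-in controls. In the S the values were 6.88, 7.0 and 5.03 in the wild type and 5.82, 6.93 and 7.09 in L4, so the genotypes overlapped. The group means in descending order were 6.61 ± 0.69 in the L4 S, 6.38 ± 0.51 in the WT EC, 6.31 ± 1.10 in the WT S and 4.57 ± 1.79 in the L4 EC (SD, n = 3), and each gap was smaller than the larger SD beside it.

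**Figure D1:**
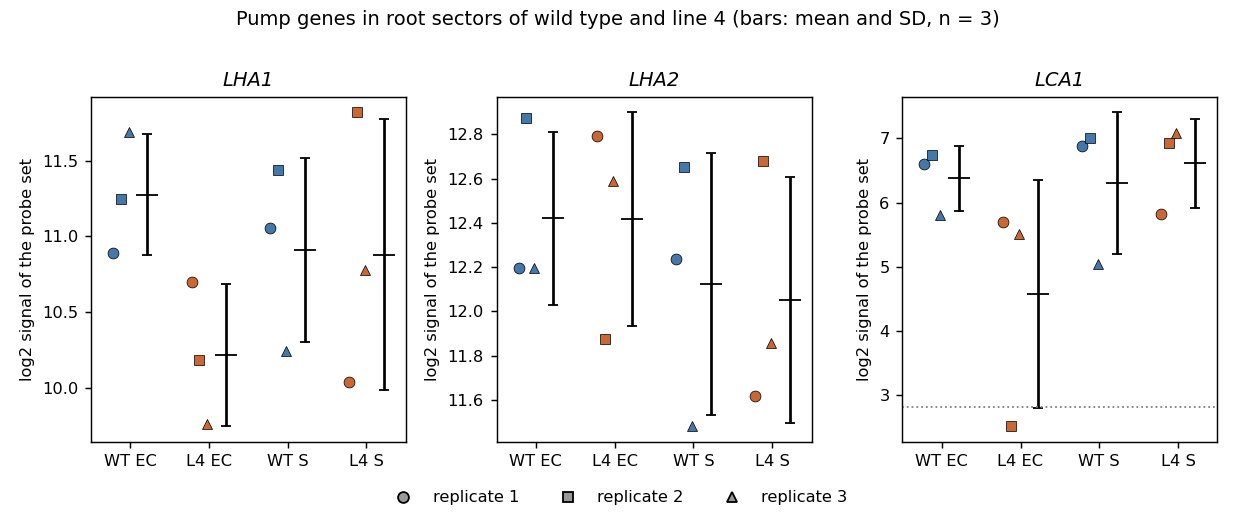
Log2 signal of LHA1, LHA2 and LCA1 (vertical axes, each with its own range) on the 12 arrays by group. Blue symbols are wild type and orange symbols L4, the shape gives the replicate, the bars give the mean and SD of 3 arrays, and the dotted line marks the lower quartile of the L4 EC replicate 2 array (2.81). LHA1 and LCA1 in the L4 EC lie below the WT EC, with LCA1 at 2.51 on 1 array, while LHA2 overlaps between genotypes in both sectors.

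The comparison of L4 with the wild type within a sector addressed whether expression of the Zn exporter was accompanied by a different level of pump transcripts. In the EC no pump gene was called. LHA1 was at -1.06 (SE 0.48, 95% CI -2.14 to 0.022, adjusted p = 0.707 from limma), LCA1 at -1.81 (SE 0.86, 95% CI -3.75 to 0.14, adjusted p = 0.715) and LHA2 at -0.0032 (SE 0.40, 95% CI -0.90 to 0.90, adjusted p = 0.997), as L4 minus wild type on the log2 scale. The intervals of LHA1 and LCA1 reached just past 0, and that of LHA2 left room for a change of 0.90 in either direction. To be called, a probe set had to change at least 1.2-fold with an adjusted p under 0.05. By limma 0 of the 10101 probe sets met this (0%, smallest adjusted p = 0.139). With the unadjusted p in its place (the unadjusted threshold below) 716 did (7.09%), and 4.83% did so while lower in L4. None of the 3 pump genes was among them in this fit, with LHA1 at an unadjusted p from limma of 0.0539 and LCA1 at 0.0652. The groups did not overlap for 2 of the 3 pump genes, both lower in L4, against 12.3% of all probe sets in either direction and 6.31% lower in L4. The median change over all probe sets tested was 0.075, and 39.3% of them were negative.

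These EC values depended on single arrays and settings. Without L4 EC replicate 2 the LCA1 change was -0.78 (adjusted p = 1.00) and the LHA1 change -1.05 (adjusted p = 0.844). In the 12 fits that left out 1 array, LHA1 ranged from -1.30 to -0.83, with an adjusted p from limma of 0.385 to 0.928. Its unadjusted p was under 0.05 in 4 of these fits. LCA1 ranged from -2.37 to -0.78 over the same fits, with an unadjusted p from limma under 0.05 in 2. Among the 10 other settings LHA1 was past the unadjusted threshold in 3, namely the EC arrays alone (unadjusted p from limma 0.0232), median centring (0.0405) and array weights, and LCA1 in 1, with array weights. When limma weighted the arrays by their quality, 1467 of the 10101 probe sets were called, although the estimate of these weights did not converge. LHA1 was among them, at -1.38 (adjusted p = 0.0216). LCA1 was then at -1.0 (adjusted p = 0.0867).

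In the S the pump genes had changes of 0.31 for LCA1 (SE 0.86, 95% CI -1.64 to 2.25), -0.033 for LHA1 (SE 0.48, 95% CI -1.11 to 1.05) and -0.073 for LHA2 (SE 0.40, 95% CI -0.97 to 0.83), each with an adjusted p of 1.00 from limma. No pump gene was called, and for none did the genotypes separate. Limma called 0 of the 10101 probe sets (0%, smallest adjusted p = 0.346) and 252 (2.49%) were past the unadjusted threshold (1.32% lower in L4), none of them a pump gene. The genotypes did not overlap for 4.3% of all probe sets (2.48% lower in L4). The sign of each of these changes turned without 1 array: LCA1 ranged from -0.33 to 0.71, LHA1 from -0.50 to 0.39 and LHA2 from -0.39 to 0.19.

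**Figure D2:**
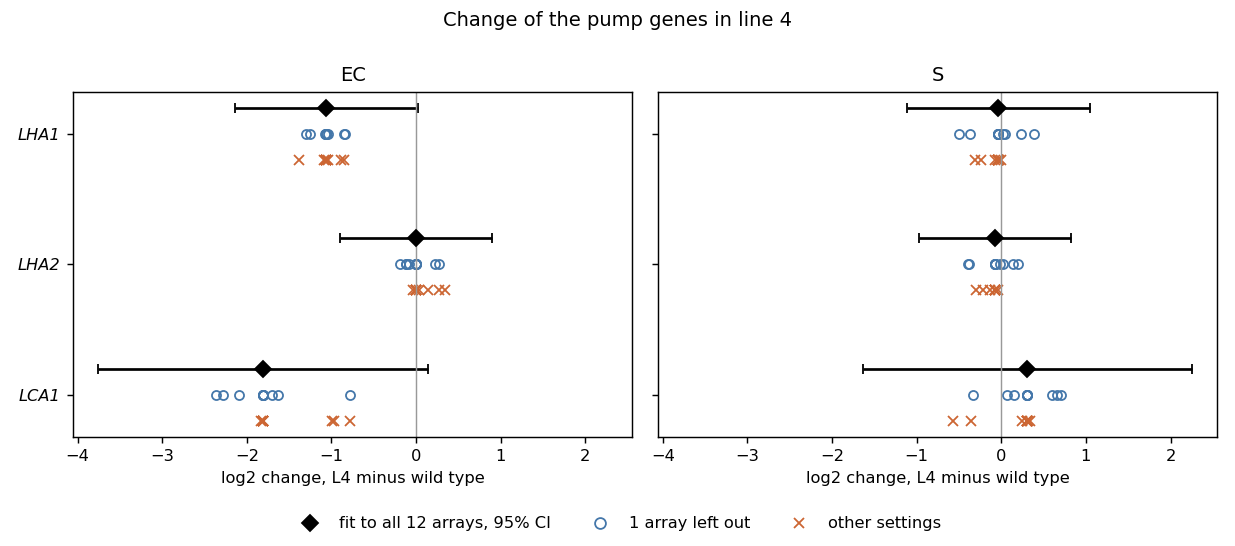
Log2 change of each pump gene, L4 minus wild type (horizontal axis), in the EC (left) and S (right). Diamonds and bars give the fit to 12 arrays with its 95% confidence interval, blue circles the fits without 1 array and orange crosses the other settings. In the EC every setting puts LHA1 between -1.38 and -0.83 and LCA1 below 0, with the fits without L4 EC replicate 2 at -0.78, while LHA2 and all S values lie on both sides of 0 or near it.

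The EC was compared with the S inside each genotype, with the root pool as a block, to see in which sector each pump transcript was higher. In the wild type the EC minus S difference of LHA1 was -0.16, -0.19 and 1.44 in pools 1 to 3. Those of LHA2 were -0.041, 0.22 and 0.71, and those of LCA1 were -0.29, -0.26 and 0.77. Pool 3 gave the highest difference for all 3 genes, and its S array had the second highest spike-in signal of all arrays (12.4). The mean differences were 0.36 for LHA1 (SE 0.55), 0.30 for LHA2 (SE 0.41) and 0.072 for LCA1 (SE 0.81), each with an adjusted p of 1.00. Limma called 0 probe sets (0%) and 276 (2.73%) were past the unadjusted threshold, with no pump gene among them. The sectors overlapped for all 3 pump genes, whereas they did not for 6.22% of all probe sets. Without WT EC replicate 3 the difference of LHA1 was -0.18 and that of LCA1 -0.28.

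In L4 the EC minus S difference of LCA1 was -0.13, -4.42 and -1.58 in pools 1 to 3, so the EC was lower in all 3 pools. This held for 8.27% of all probe sets. All L4 EC values of LCA1 were also below all L4 S values, with 5.69 and 5.82 the closest pair, as for 2.86% of all probe sets (4.83% in either direction). The mean difference was -2.04 (SE 0.81, 95% CI -4.09 to 0.0020, adjusted p = 0.95 from limma). Without L4 EC replicate 2, and so from pools 1 and 3 alone, it was -0.85 (adjusted p = 1.00). LHA1 differed between the sectors by 0.65, -1.63 and -1.01 and LHA2 by 1.17, -0.81 and 0.73, so neither had one sign in all pools. Their mean differences were -0.66 (SE 0.55) and 0.37 (SE 0.41). Limma called 0 probe sets (0%, smallest adjusted p = 0.623), and 411 (4.07%) were past the unadjusted threshold, with no pump gene among them. LCA1 was past it in 6 of the 8 other settings, with unadjusted p-values from limma of 0.0372 to 0.0491, against 0.0502 here. These were the fit without the pool block, quantile normalization, median centring, the filter on mean signal, trended robust eBayes and the spike-in covariate, whereas with array weights the difference was -0.82 (adjusted p = 1.00). Over the 8 settings the adjusted p was 0.909 to 1.00.

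**Figure D3:**
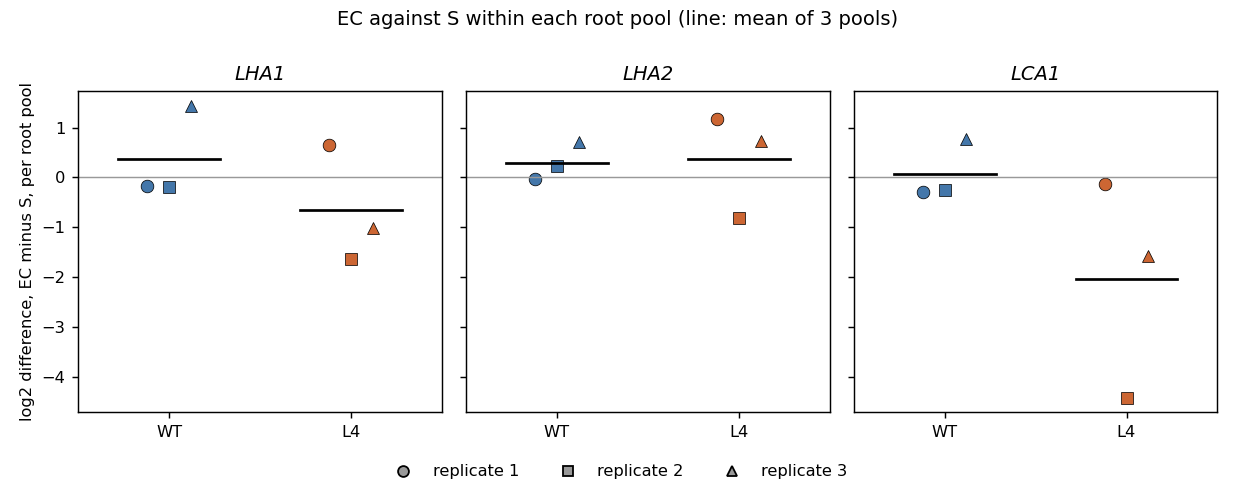
EC minus S difference in log2 signal (vertical axis, shared) within each root pool of the wild type (blue) and L4 (orange), with the mean of 3 pools as a line. LCA1 in L4 lies below 0 in all 3 pools, from -0.13 to -4.42, whereas LHA1 and LHA2 lie on both sides of 0 in both genotypes.

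Whether the genotype change differed between the sectors was tested within the root pools. The EC change minus the S change was -2.11 for LCA1 (SE 1.15, 95% CI -5.01 to 0.78), -1.03 for LHA1 (SE 0.78) and 0.069 for LHA2 (SE 0.59), with adjusted p-values from limma of 0.983 to 0.991. Limma called 0 of the 10101 probe sets (0%, smallest adjusted p = 0.983) and 242 (2.4%) were past the unadjusted threshold, with no pump gene among them. The separation of the genotypes seen for LHA1 and LCA1 in the EC was thus not shown to differ from the S. Without L4 EC replicate 1 the difference for LCA1 was -3.07 (adjusted p = 0.843), and without L4 EC replicate 2 it was -0.92 (adjusted p = 1.00). Because of the pool block, each of these fits in effect leaves out the whole L4 pool of that number.

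The proton pumps were also set against each other within each array, which takes out any shift that both probe sets share. This measure was chosen after the values were seen, so the permutation p-values given with it are descriptions only. Its level depends on the probes, and only its spread between arrays can be read. LHA1 minus LHA2 was -1.30, -1.63 and -0.51 in the WT EC and -2.10, -1.69 and -2.82 in the L4 EC. The L4 arrays lay below the wild-type arrays, with -1.63 and -1.69 the closest pair. The permutation test gave p = 0.1, or 0.3 after Benjamini-Hochberg adjustment over 6 tests. With 20 splits of the arrays, 0.1 is the smallest p this test can give. It therefore could not fall under 0.05 and cannot decide whether the genotypes differ. As the LHA2 change in the EC was -0.0032, this largely repeats the separation of LHA1. LCA1 was set against both proton pumps likewise. In the EC LCA1 minus LHA2 separated the genotypes, whereas LCA1 minus LHA1 overlapped. How often pairs of other probe sets separate was not computed. In the S LHA1 minus LHA2 was -1.18, -1.22 and -1.24 in the wild type and -1.58, -0.86 and -1.08 in L4 (p = 0.9 by the permutation test). Its SD was 0.029 in the WT S and 0.37 in the L4 S, narrower than for either gene alone (0.56 to 0.89). In the EC it was 0.58 in both genotypes, wider than for either gene alone (0.39 to 0.48). Across the 12 arrays the pump genes tended to be high on the same arrays. Pearson's r was 0.48 between LHA1 and LHA2, 0.57 between LCA1 and LHA1, and 0.40 between LCA1 and LHA2. These points share array, amplification and pool and are not independent.

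Of the other genes of the pathway, the 14-3-3 proteins were represented by 7 genes, TFT3, tft4, TFT6, TFT7, tft8, TFT9 and tft10. In the EC 0 were called, and 3 of the 7 were past the unadjusted threshold and lower in L4, against 4.83% of all probe sets, with 0 past it and higher. A negative change was found for 5 of the 7, against 39.3% of all, and the median was -0.99, against 0.075 over all. The median rested on single arrays. Without L4 EC replicate 2 it was -0.33, against -0.0046 over all, with 3 past the threshold and 4 negative, and without L4 EC replicate 1 it was -1.58. In the S 0 were past it and the median was 0.0070, against -0.0053 over all, and ranged from -0.32 to 0.21 over the fits without 1 array. The list was chosen with earlier results of these arrays known.

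TFT7 was at 11.39, 11.48 and 10.90 in the WT EC and at 10.29, 8.23 and 9.85 in the L4 EC, with all L4 arrays below the wild type (change -1.80, SE 0.56, adjusted p = 0.567 from limma). For tft4 the values were 11.53, 11.80 and 11.93 in the WT EC and 10.98, 9.72 and 10.79 in the L4 EC, again without overlap (-1.25, SE 0.35, adjusted p = 0.556). Replicate 2 of L4 gave the lowest value for both genes. For tft10 the EC groups touched, at 12.82, 13.71 and 13.55 in the wild type and 12.82, 11.43 and 11.75 in L4 (-1.36, SE 0.36, adjusted p = 0.525). In the S the genotypes separated for tft10, with 13.11, 12.90 and 13.26 in the wild type and 12.21, 12.19 and 12.57 in L4 (-0.77, SE 0.36, adjusted p = 1.00). Without L4 EC replicate 2 the EC changes of TFT7, tft4 and tft10 were -1.19, -0.86 and -1.07, each still past the unadjusted threshold. The other S changes lay between -0.15 and 0.16. The remaining 14-3-3 genes had EC changes of -0.99 for tft8, -0.89 for TFT6, 0.051 for TFT3 and 0.000067 for TFT9. Without L4 EC replicate 2 these were 0.18, -0.33, 0.53 and 0.16. The change of tft4 differed between the sectors by -1.41 (SE 0.43, adjusted p = 0.983).

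The list of transporters that use the proton gradient, picked by symbol or synonym, held 17 probe sets of 16 genes. It includes AAT, for which the annotation used does not say whether it is a transporter. In the EC 0 were called, and 2 of the 17 were past the unadjusted threshold and lower in L4, against 4.83% of all probe sets, with 0 past it and higher. A negative change was found for 11 of the 17, against 39.3% of all, with a median of -0.46. The median was -0.19 without L4 EC replicate 2 (52% of all probe sets negative), -0.25 without WT EC replicate 3, -0.28 without L4 EC replicate 1 and -0.74 without WT EC replicate 1. In this last fit 5 were past the threshold and lower, against 6.52% of all. Without L4 EC replicate 2, 1 was past it and higher, and likewise 1 without L4 EC replicate 3. In the former fit this was Nramp2, at 0.61 (SE 0.19, adjusted p = 0.555 from limma), against 0.34 (SE 0.24) with all arrays. The paper states that this probe set also recognizes other sequences. By RT-qPCR it found the Nramp2 transcript slightly lower in the EC of L4, and it took that result as the valid one. The 2 probe sets past the threshold with all arrays were both phosphate symporters. PT1 was at 5.94, 7.55 and 7.67 in the wild type and at 4.86, 6.24 and 4.82 in L4, with overlapping groups (-1.75, SE 0.61, adjusted p = 0.616). With quantile normalization it was at -1.15 (adjusted p = 0.733) and no longer past the unadjusted threshold. PT2 was at 2.86, 3.65 and 4.86 in the wild type and at 2.21, 2.42 and 2.19 in L4, close to the lower quartile of the arrays, so that its change of -1.52 (SE 0.40, adjusted p = 0.525) is of uncertain size. Without WT EC replicate 3 it was -0.98. Both genes are also among the EC markers, and whether the captured tissue had a part in these values was not tested. The cation and proton antiporters NHX1 and NHX2 were at 0.28 (SE 0.18) and -0.50 (SE 0.38). NHX1 (2.21 to 2.95 on all arrays), AAP3 (2.22 to 2.39) and AAT (2.37 to 3.30) were also close to the lower quartile. Their changes are of uncertain size and sign, yet they enter the counts and medians of the list. The most positive change was that of the hexose transporter HT2, at 1.71 (SE 1.36), and at 0.54 without L4 EC replicate 2. With array weights, whose estimate did not converge, TFT7, tft4, tft10, PT1 and PT2 were called in the EC, with adjusted p-values from limma of 0.00688 to 0.0187. In that fit 1467 of the 10101 probe sets were called, so a call was common.

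In the S, 1 of the 17 probe sets was past the unadjusted threshold and lower in L4, against 1.32% of all probe sets, 0 were called, and the median was -0.052. This was 1 of the 2 probe sets of SUT4, a sucrose symporter and an S marker. It read 3.32, 4.15 and 2.57 in the wild type and 2.59, 2.57 and 2.55 in L4 (-0.77, SE 0.32, adjusted p = 1.00), whereas the other probe set was at 0.23 (SE 0.28). The L4 values were close to the lower quartile of their arrays, so that this change is of uncertain size. It was -0.37 without WT S replicate 2 and -1.16 without WT S replicate 3, and with the S arrays alone or quantile normalization it was not past the unadjusted threshold. The calcium signalling genes found by symbol or synonym were the calcium-dependent protein kinases cpk1 and CDPK1 and the calcineurin B-like interacting kinase SOS2. None of the 3 was called or past the unadjusted threshold in either sector. In the EC they were at -0.72 (SE 0.34), 0.011 (SE 0.43) and 0.22 (SE 0.17), and in the S between -0.16 and -0.015. SOS2 read 2.32 to 2.97 on all arrays, close to their lower quartile, so its changes are of uncertain size. No probe set was named for other membrane ATPases or pyrophosphatases.

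**Figure D4:**
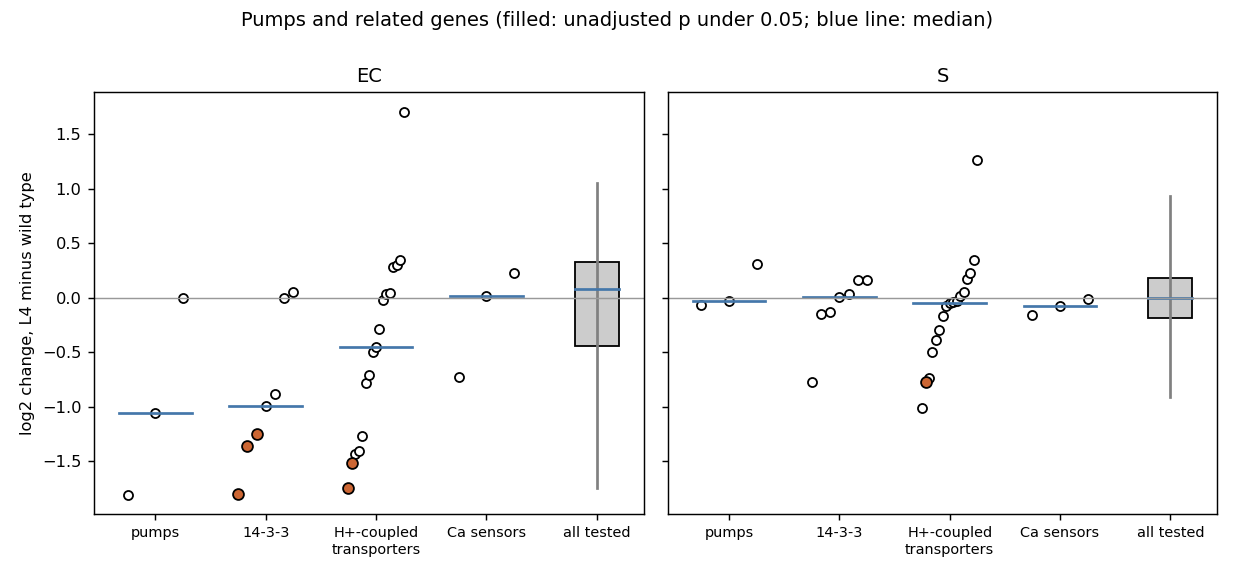
Log2 change, L4 minus wild type (vertical axis), of the pump genes and of the related lists in the EC (left) and S (right), with 1 circle per probe set. Filled circles are past the unadjusted threshold, blue lines are medians, and the grey box and line give the quartiles and the 5th to 95th percentiles of all probe sets tested. In the EC 3 of the 7 14-3-3 and 2 of the 17 transporter probe sets are filled, all below 0, and in the S only 1 transporter probe set is.

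Among named genes outside the family, those with the pattern over the 12 arrays most like LHA2, the proton pump with the higher mean signal, were Rab11a, a small GTPase of membrane traffic (Pearson's r = 0.88), FUT13 (0.86) and LOC543937 (0.77). Without L4 EC replicate 2 these were 0.87, 0.85 and 0.75. Most like LCA1 were ail (0.93), LOC543655 (0.88) and FLACCA, a molybdenum cofactor sulfurase needed for abscisic acid synthesis (0.88). Without that array these fell to 0.84, 0.57 and 0.58. FLACCA was at 3.01 on L4 EC replicate 2 and at 5.13 on WT S replicate 3, the arrays with the highest spike-in signals, and above 7 on the others. The correlations are over arrays that share pools and are descriptions only.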

How the data were processed

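The values analysed were the log2 signals of each probe set that the authors deposited for the 12 root arrays (0 value columns unused). GeneChip Command Console software produced them, and their summarisation and normalization are not given in the sources used here. The tests covered 10101 of 10209 probe sets, without the 108 array controls, unfiltered by signal, and with 63 reporter probe sets kept. Gene symbols came from the platform annotation and were updated through gene identifiers for 885 probe sets. Groups came from the sample labels.

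Tests were run with limma 3.58.1 under R 4.3.3 (functions lmFit and eBayes, two-sided) across all probe sets, with p-values adjusted by Benjamini-Hochberg over all of them. The genotype comparisons used 4 group means (8 residual degrees of freedom). The sector comparisons and the difference of changes were blocked by root pool, with 4 residual degrees of freedom, since both sectors were cut from the same roots. The number of arrays limits the precision. Same-numbered EC and S arrays deviated from their group means with correlations of 0.63, 0.17 and 0.062 in the wild type and 0.031, -0.16 and -0.27 in L4, so the values alone would not show the pools.

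All members were named. Other genes of the pathway were listed by symbol (TFT and others) and named where past the unadjusted threshold. The 3 named genes with the highest Pearson's r to the LHA and LCA probe set of highest mean were named too. Other genes are named to complete a list and were chosen after their values were seen. AAT entered the transporter list through its synonym AAT1, and whether it is a transporter is not given. The members, lists and sector markers were chosen with earlier results of these data known. The functions were tested on simulated data.

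Alternatives were to block by replicate number, to fit the arrays of a sector alone, to drop the pool block, to normalize by quantiles, to centre on medians, to require a mean log2 signal of 4 or more, to weight arrays, to use trended robust eBayes, and to omit each array in turn. Chosen after seeing the data were the spike-in signal as a covariate, omission of the 3 arrays whose spike-in controls were brightest (genotype comparisons only, since 1 complete L4 pool remains), omission of the reporter probe sets, and the lists without each array. Plots were made with Python 3.11.15 and matplotlib 3.10.9.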

Additional observations from a re-analysis of the deposited data

How the results depend on the processing

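No pump gene was called in any comparison under any alternative, except LHA1 in the EC with array weights, where 1 member was called. Past the unadjusted threshold were 0 to 2 pump genes in the EC and between the L4 sectors, and 0 to 1 in the difference, over all alternatives, and 0 in the S and between the WT sectors. Probe sets called in the EC numbered 1467 with array weights, 8 without the 3 arrays of highest spike-in signal, 1 with only the arrays of the sector and 0 to 10 without 1 array, against 0. In the S they numbered 2 with array weights, 7 without the 3 arrays and 0 to 3 without 1 array. The number past the unadjusted threshold ran from 509 (mean of at least 4) to 2663 (array weights) in the EC and from 145 to 796 in the S. Between sectors it ran from 108 to 1174 in the wild type, from 210 to 540 in L4 and from 109 to 536 for the difference. Without 1 array the ranges were 355 to 1209, 168 to 473, 128 to 364, 295 to 767 and 182 to 573.

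With the replicate number as a block, LHA1 in the EC stayed at -1.06 (adjusted p = 0.645 from limma) and LCA1 at -1.81 (adjusted p = 0.696), with 0 probe sets called in either sector. Same-numbered arrays of the 2 genotypes deviated with correlations from -0.10 to 0.38, so the numbers were not shown to pair them. Without the pool block 0 probe sets were called, and 240, 347 and 219 were past the unadjusted threshold.

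Signs turned as follows. LHA2 in the EC was at 0.14 with quantile normalization, 0.032 with array weights, 0.27 without the 3 arrays and 0.34 with the spike-in covariate. LCA1 in the S was at -0.35 with array weights and -0.57 without the 3 arrays. Between the sectors of the wild type LCA1 was at -0.068 with quantile normalization, -0.20 with array weights and -0.29 with the covariate, and LHA1 at -0.054 with array weights. With array weights LHA1 was at 0.077 between the sectors of L4 and at 0.13 for the difference. Over the fits without 1 array LHA2 ranged from -0.19 to 0.27 in the EC, from -0.037 to 0.95 between the L4 sectors and from -0.33 to 0.66 for the difference. In the S LCA1 ranged from -0.33 to 0.71, LHA1 from -0.50 to 0.39 and LHA2 from -0.39 to 0.19. WT sectors gave LHA1 from -0.18 to 0.64 and LCA1 from -0.28 to 0.25. In the EC LCA1 ranged from -2.37 to -0.78, lowest without L4 EC replicate 1 and highest without L4 EC replicate 2. The cause of these shifts was not tested.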
